A study of Mus musculus with 2 samples.

Results

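The strongest distal DNase-hypersensitive peaks of the newborn mouse calf muscle were 296 regions that lay away from transcript starts and were among the most heavily cut peaks of both libraries. They were chosen by measured values. A peak of replicate 1 was a member if it lay on chromosomes 1 to 19, overlapped one of replicate 2, lay with its centre over 1 kb away from all transcript starts of GENCODE vM21, and had a percentile rank of 95 or more for cut density within its own library, as had its best overlapping peak. Replicate 1 had 94295 peaks and replicate 2 had 123291. Of these, 44551 distal peaks of replicate 1 were shared with replicate 2, and the members were 0.664% of them. Members were counted as peaks of replicate 1: they had 294 different partners in replicate 2, and on chromosome 15 a member lay inside another. The other 44255 shared distal peaks are the set they are compared with.

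DNase-seq cuts nuclear DNA with DNase I where it is not covered by nucleosomes or tightly bound proteins, and counts the cuts. The tissue was the gastrocnemius of male B6CASTF1/J mice, hybrids of C57BL/6J and CAST/EiJ, at an age of 4 days. The 2 libraries were biological replicates 1 and 2 of a single untreated group, from different tissue samples that carry the same donor entry, and each label speaks of 3 males, so animals were pooled. There was no second group, so no test was made: all values describe these 2 libraries, and regions are not replicates. In whole tissue, fewer cells with an open region and a less open region per cell cannot be told apart. Cuts were not split by parental allele.

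Accessible regions far from transcript starts are mostly known as enhancers, silencers and insulators. CTCF is a zinc-finger protein that marks insulators and the anchors of chromatin loops, and it leaves a sharp protected footprint. CpG islands are GC-rich stretches that escape DNA methylation; most lie at promoters, and those away from annotated starts are called orphan islands. In muscle, the myogenic factors MyoD and myogenin bind E-boxes of the form CAGCTG.

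The reference sequences below show the recurring kinds of member. They are RefSeq GRCm38.p6 (mm10) sequences, 5′ to 3′ on the strand of the match for the first set and on the plus strand for the second, and they do not show CAST/EiJ variants. The first set gives CTCF matches in introns or between genes that a footprint overlapped in both libraries. They are those of the highest mean rank, with 10 bases on either side. Capitals mark the match, and the coding gene with the nearest start is named.
Gnai2, chr9:107612825-107612856, minus strand: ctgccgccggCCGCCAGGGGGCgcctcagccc
Chd2, chr7:73618505-73618536, minus strand: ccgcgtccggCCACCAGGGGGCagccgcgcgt
Rdh8, chr9:20831175-20831206, minus strand: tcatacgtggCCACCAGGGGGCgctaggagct
Trpv4, chr5:114667711-114667742, minus strand: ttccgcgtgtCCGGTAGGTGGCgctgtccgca
Acot11, chr4:106839041-106839072, plus strand: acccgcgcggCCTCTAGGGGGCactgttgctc
Bcan, chr3:87987134-87987165, minus strand: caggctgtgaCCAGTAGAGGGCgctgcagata

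The second set gives whole member peaks with combinations of sequences that the results return to. In the Per1 peak, in an intron of this clock gene, capitals mark an E-box and a cAMP response element (CRE). The Irf2bp2 peak lay between genes, and capitals mark a CArG box, the site of serum response factor, and 2 palindromic NFI sites. The Mnt peak lay in an intron of this MAX-binding repressor gene, and capitals mark a TEAD site, 3 SP sites and a CACGTG E-box. In the Gnai2 peak, capitals mark a CRE, 2 CAGCTG E-boxes and the CTCF match shown above. In the Atoh8 peak, in an intron, they mark a TEAD site. In the Fos peak, downstream of this immediate early gene, they mark a KLF site, a CArG box and an SP site.
Per1, chr11:69097021-69097240: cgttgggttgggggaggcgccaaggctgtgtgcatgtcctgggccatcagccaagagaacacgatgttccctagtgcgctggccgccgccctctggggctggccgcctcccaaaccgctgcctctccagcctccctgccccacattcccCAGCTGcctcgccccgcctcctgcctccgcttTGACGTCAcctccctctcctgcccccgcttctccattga
Irf2bp2, chr8:126666541-126666760: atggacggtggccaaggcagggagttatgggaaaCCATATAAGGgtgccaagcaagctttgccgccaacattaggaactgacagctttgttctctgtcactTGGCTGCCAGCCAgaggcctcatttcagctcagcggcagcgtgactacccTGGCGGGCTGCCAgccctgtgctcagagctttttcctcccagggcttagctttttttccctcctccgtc
Mnt, chr11:74832201-74832420: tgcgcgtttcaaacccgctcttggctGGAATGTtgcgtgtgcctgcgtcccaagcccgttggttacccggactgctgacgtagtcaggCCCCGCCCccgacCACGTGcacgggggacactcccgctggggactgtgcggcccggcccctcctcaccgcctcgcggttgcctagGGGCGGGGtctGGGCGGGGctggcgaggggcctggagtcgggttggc
Gnai2, chr9:107612741-107612940: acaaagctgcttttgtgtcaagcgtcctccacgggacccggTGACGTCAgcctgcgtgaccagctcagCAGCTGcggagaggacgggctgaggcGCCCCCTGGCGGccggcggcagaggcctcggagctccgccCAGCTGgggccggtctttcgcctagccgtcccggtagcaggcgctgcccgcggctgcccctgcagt
Atoh8, chr6:72216741-72216940: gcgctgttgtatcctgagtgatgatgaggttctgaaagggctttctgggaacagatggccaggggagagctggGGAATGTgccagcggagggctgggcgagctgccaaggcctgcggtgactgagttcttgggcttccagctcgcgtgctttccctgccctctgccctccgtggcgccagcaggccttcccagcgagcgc
Fos, chr12:85486021-85486240: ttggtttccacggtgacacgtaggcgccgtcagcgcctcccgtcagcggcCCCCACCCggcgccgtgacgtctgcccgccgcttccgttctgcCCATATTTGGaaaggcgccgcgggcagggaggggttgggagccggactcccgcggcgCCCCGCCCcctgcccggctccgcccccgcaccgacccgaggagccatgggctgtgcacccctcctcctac

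Sequences were searched as exact letters on both strands of the 200 bp around each peak's centre. CTCF was CCNNNAGGGGGC, CCNNNAGGTGGC, CCNNNAGAGGGC or CCNNNAGATGGC, and SP was CCCCGCCC. AP-1 was TGACTCA or TGAGTCA, CRE was TGACGTCA, and NF-Y was CCAATCA or CCAATGA. TEAD was ACATTCC, RUNX was TGTGGTT, KLF was CCCCACCC and ETS was CCGGAAG. MEF2, CArG, the palindromic NFI site and NRF1 were searched under their usual consensus. A match is a description of letters and not a bound site, and the sequence sets can overlap: 9 of the 27 members with CAGGTG had it inside a CTCF match, as had 836 of the 6942 other shared distal peaks with CAGGTG. None of the 69 members with CAGCTG had it overlapping a CTCF match.

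The check of the tissue used promoter peaks. The highest promoter peak of Myod1, the myogenic determination factor, ranked at 86.1 in replicate 1 and 84.6 in replicate 2. Those of Des (desmin, 89.0 and 88.0) and Ckm (muscle creatine kinase, 84.4 and 83.2) were in the same range. Ryr1, for the calcium release channel (81.7 and 83.4), followed, and Acta1, for skeletal actin (69.0 and 74.7), and Myog, for myogenin (65.2 and 69.5), were lower. No peak was listed at the promoters of Alb and Apoa1 (liver), Amy2b (pancreas), Snap25 (neurons) or Ptprc (blood cells), whereas Ins2, the insulin gene of the pancreas, had one at 71.8 and 75.5, above those of Acta1 and Myog in both libraries. Ranks are percentiles within a library; the scale of the deposited densities to depth is not stated, so density is compared between regions of one library only. The number of reads behind a library is unknown.

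Cut density, the authors' own value, chose the members and is given as a description. In replicate 1 the members ranged over 6.62, 8.14 and 41.3 (lowest, median and highest), against a median of 0.898 in the other shared distal peaks. In replicate 2 they ranged over 3.70, 5.17 and 38.3, against a median of 0.673. Few distal peaks reach such ranks: 309 of 58706 distal peaks of replicate 1 (0.526%) and 527 of 81843 of replicate 2 (0.644%) ranked at 95 or more. Of the 28376 shared peaks within 1 kb of a start, 15.2% did so in both libraries. Each of the 309 had a partner in replicate 2, which for 13 of them was below rank 95, the lowest at 84.8. Just inside the threshold lay a peak near Kctd17 (chr15:78437021-78437180, ranks 95.27 and 95.02) and one near Asap3 (chr4:136218641-136218840, 95.02 and 96.56). Just outside it lay peaks near Krt78 (chr15:101973781-101973940, 95.93 and 94.98) and Gm12746 (chr4:106840001-106840200, 94.96 and 95.58).

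**Figure D1:**
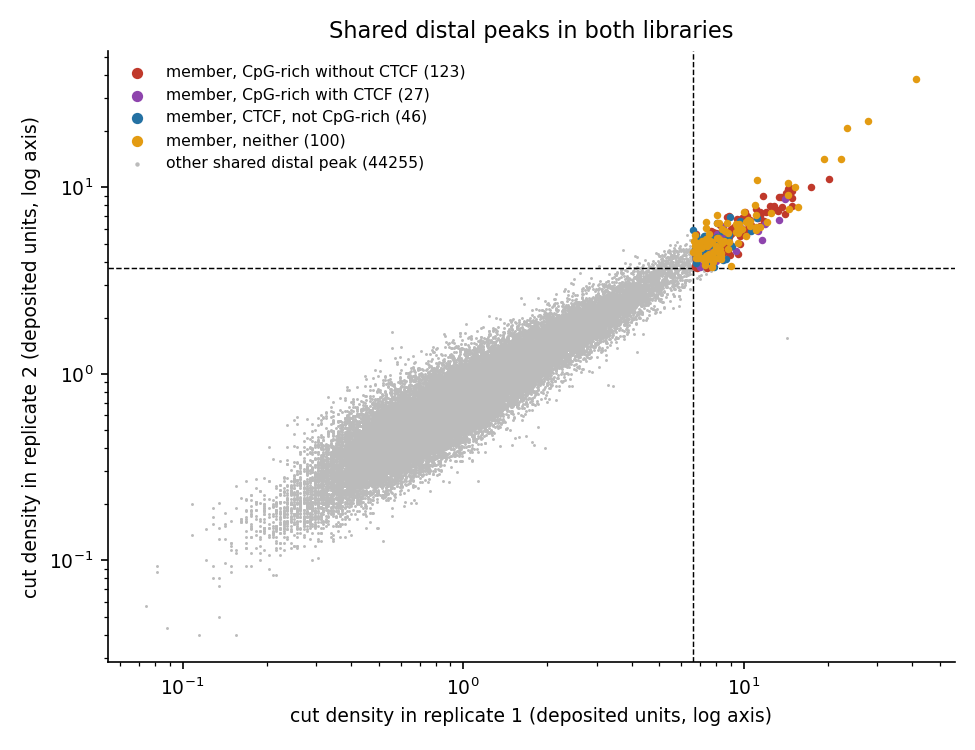
Cut density of each shared distal peak in replicate 1 (x axis) and replicate 2 (y axis), in deposited units on log axes; colours give the sequence class of the members and dashed lines the density at rank 95 in each library. The members fill the upper right corner, between 6.62 and 41.3 in replicate 1 and 3.70 and 38.3 in replicate 2, and 5 members of the class with neither feature hold the highest values in replicate 2.

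Sequence split the members into 4 classes. CpG-rich windows, with over 50% GC and an observed to expected CpG ratio over 0.6, made up 150 of the 296 members (50.7%), against 6.85% of the other shared distal peaks. At the strongest peaks within 1 kb of a start the share was 94.2%. The median GC content was 62.5% in members and 53.5% in the others, and the median CpG ratio was 0.622 and 0.255. A CTCF match was found in 73 members (24.7%), against 16.5% of the others. Of the members, 123 were CpG-rich without CTCF, 27 were CpG-rich with it, 46 had CTCF without being CpG-rich, and 100 had neither. That last class was 33.8% of members and 77.4% of the other shared distal peaks.

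The CpG-rich members without CTCF carried the sequences of promoter-associated factors. SP, the GC box bound by the SP family, was found in 46 of these 123 (37.4%), NF-Y in 20 (16.3%) and CACGTG, the E-box of MYC, USF and clock factors, in 16 (13.01%). Among all CpG-rich windows, SP was found in 35.3% of the members and 11.7% of the others, NF-Y in 14.0% and 3.43%, CRE in 5.33% and 1.09%, and CACGTG in 12.7% and 7.26%. This class sets only lower limits, so GC content can still differ within it. Among all windows of 70% GC or more, SP was found in 41.2% of the members and 21.7% of the others. There NF-Y was found in 7.84% and 2.84%, and CRE in 3.92% and 0.426%. CAGCTG, at 16.0% and 18.3%, and CAGGTG, at 5.33% and 14.0%, were not more frequent in the CpG-rich members.

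Outside the CpG-rich windows, CTCF was the sequence found in most members, in 31.5% against 16.9% of the others. CAGCTG followed, at 30.8% in both sets. AP-1, the site of FOS and JUN dimers, was found in 9.59% against 5.94%, although over all windows it was found in 5.74% of members and 5.73% of the others and in CpG-rich ones in 2.00% and 2.81%. TEAD, the site of the Hippo pathway's DNA-binding factors, was found in 8.90% against 4.07%, and SP in 8.90% against 2.78%. CRE, bound by CREB and ATF proteins, was found in 2.74% against 0.332%. The MEF2 consensus was found in 1 of the 296 members (0.338%) and 0.438% of the others, so that neither set held it often. In 49 members (16.6%) none of the 36 sequence sets was found.

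**Figure D2:**
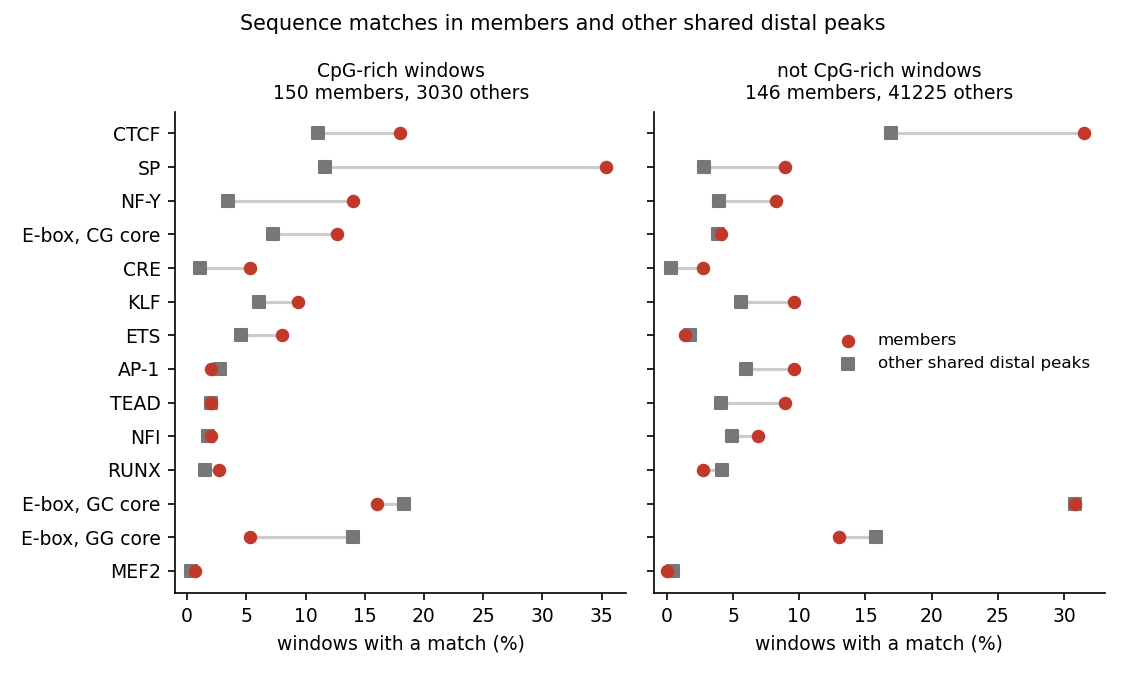
Share of 200 bp windows with a match to each of 14 sequence sets in members (circles) and other shared distal peaks (squares), for CpG-rich windows on the left and the rest on the right, in percent. E-boxes are named by their central bases. SP stands furthest apart in CpG-rich windows (35.3% of members, 11.7% of others) and CTCF in the rest (31.5% and 16.9%).

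Sequence composition changed with rank, among members as well as below them. Among 1017 peaks whose lower rank was 90 to 95, just below the members, 26.7% were CpG-rich. In members the share was 44.6% at 95 to 97 (175 peaks), 54.8% at 97 to 99 (84 peaks) and 70.3% at 99 to 100 (37 peaks). CTCF took another course: its share was 6.11% at ranks 0 to 25, 36.4% at 90 to 95, then 30.3%, 22.6% and 2.70% in the 3 bands of members. The last band held 1 peak with CTCF of 37. SP was at 9.44% at 90 to 95 and at 18.9%, 25% and 32.4% in the bands of members, and CRE at 0.688%, then 1.71%, 4.76% and 13.5%. CAGCTG was at 24.3% at 90 to 95, then 25.1%, 21.4% and 18.9%.

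**Figure D3:**
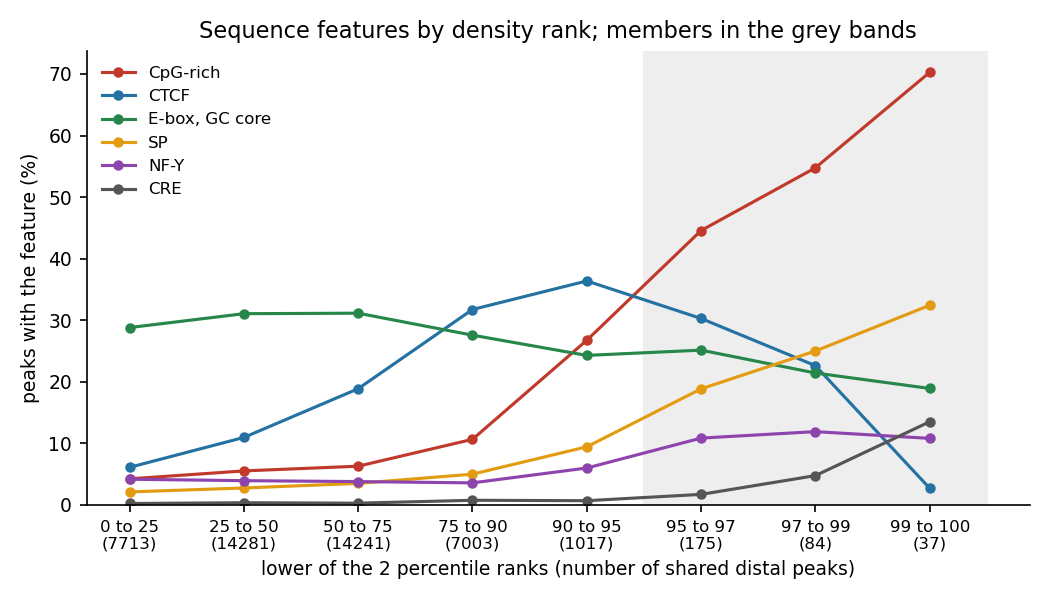
Share of shared distal peaks with each feature (y axis, percent) in 8 bands of the lower of the 2 percentile ranks (x axis, with the number of peaks); the grey area holds the members. CpG-rich windows reach 70.3% in the highest band, while CTCF peaks at 36.4% in the band just below the members and stands at 2.70% in the highest band, which has 37 peaks.

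Short words recurring in members held CpG. The 10 words of 8 bases with the highest ratio of shares, among those in at least 2% of members, all held a CG. The ranking made no allowance for composition, and 50.7% of members but 6.85% of the others were CpG-rich, so words with CG were favoured. The first was CGATTGGC, in 9 members (3.04%) and 0.118% of the others. Its reverse complement and the second word share CCAATCG, a form of the NF-Y site that the letters above leave out. This word, chosen after the values were seen, was found in 13 members (4.39%) and 0.380% of the others, and 12 of the 13 were CpG-rich. Among CpG-rich windows its shares were 8.00% of members and 0.990% of the others, and in the rest 0.685% and 0.335%.

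All 296 members held a footprint in both libraries, as did 85.1% of the other shared distal peaks, and 270 members (91.2%) held at least 3 in both, against 24.4%. Footprints are called from the same cuts that set the rank, so a higher count in members is not independent of how they were chosen. For each sequence set, the match nearest the centre was scored by whether a footprint overlapped any of its bases. The sets differ in length and in distance to the centre, with medians in members of 11.5 bp for NFI and 52.5 bp for AP-1. No allowance was made for this. Matches overlapped in both libraries were found at very different rates. All 13 members with NFI, all 6 with NRF1, 71 of 73 with CTCF (97.3%) and 11 of 12 with CRE (91.7%) had such a match. SP had it in 56 of 66 (84.8%), CACGTG in 18 of 25 (72.0%), NF-Y in 18 of 33 (54.5%) and CAGCTG in 34 of 69 (49.3%). AP-1 had it in 5 of 17 (29.4%) and TEAD in 2 of 16 (12.5%).

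The nearest comparison is with other shared distal peaks whose lower rank was 75 or more. The members' 97.3% for CTCF stood beside 98.1% in these. Their 72.0% for CACGTG stood against 32.8%, their 54.5% for NF-Y against 26.3%, and their 49.3% for CAGCTG against 29.9%. TEAD went the other way, at 12.5% against 27.8%. This set was not matched to the members in cut density: 7003 of its peaks had a lower rank of 75 to 90 and 1017 one of 90 to 95. Below rank 75 the rates were lower still, at 11.6% for CACGTG, 8.49% for NF-Y and 14.3% for CAGCTG. The differences are therefore not independent of how the members were chosen. The RUNX match of the highest rank that a footprint overlapped in both libraries lay in an intron of Nfib, a nuclear factor I gene (chr4:82513201-82513440). Its peak had densities of 11.7 in replicate 1 and 5.20 in replicate 2. CTCF matches lay near the middle of the members, 49 of 73 within 25 bp of the centre, with 37 on the plus and 36 on the minus strand. Their median distance to the centre was 18 bp. In the other shared distal peaks it was shorter, 10 bp at a lower rank of 75 or more and 12 bp below that. Bases within 5 bp of the middle of the match were in a footprint in 96.9% of the members' matches in replicate 1 and 96.8% in replicate 2. From 30 to 50 bp downstream the share was 15.003% and 19.96%.

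**Figure D4:**
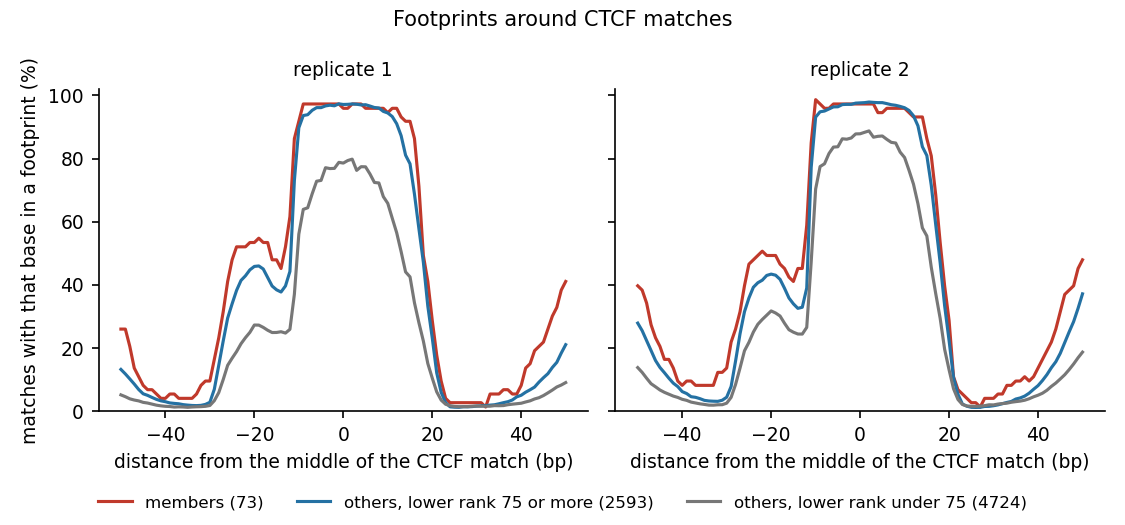
Share of CTCF matches in which a base lies in a footprint (y axis, percent) by its distance from the middle of the match on the strand of the match (x axis, bp), in replicate 1 (left) and replicate 2 (right). Members and other peaks with a lower rank of 75 or more share a plateau at about the same height (highest values 97.3% and 97.3% in replicate 1); other peaks below rank 75 reach 79.8% there.

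The CTCF members shown above differed in class. Gnai2, which encodes an inhibitory G protein subunit, had the CTCF member of the highest mean rank, 3206 bp downstream of its start, with densities of 14.0 in replicate 1 and 8.69 in replicate 2. The member 76691 bp upstream of Chd2, a chromatin remodeller gene, had 13.4 and 6.66, and that near Trpv4, an ion channel gene, had 11.9 and 6.40. These 3 were CpG-rich, as was that near Acot11, with 11.2 and 5.84. The members near Rdh8 (11.2 and 6.86) and Bcan (9.69 and 6.63) were not. Members with CTCF that were not CpG-rich had the shortest accessible stretches of the 4 classes: the run of bases with a false discovery rate below 0.05 around them had a median of 377 bp in replicate 1 and 542.5 bp in replicate 2. In CpG-rich members without CTCF it was 683 and 1001 bp, and in all members 563 and 791.5 bp, against 217 and 259 bp in the other shared distal peaks. These stretches come from the same cuts that set the rank, so longer ones in members are not independent of how they were chosen.

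By position, 153 members (51.7%) lay between genes, 107 (36.1%) in introns, 16 (5.41%) in exons of noncoding genes, 13 (4.39%) in untranslated exons and 7 (2.36%) in coding exons. In the other shared distal peaks 45.1% lay between genes and 46.9% in introns. Of members with neither CpG richness nor CTCF, 49 of 100 were intronic, against 25.2% of the CpG-rich members without CTCF. Members lay nearer to genes: the median distance to a start was 5849 bp, against 11192 bp, and 136 (45.9%) lay within 5 kb, against 28.4%. Chromosome 11 held 42 members, 14.2% of them, and 7.58% of the other shared distal peaks. Chromosome 14 held the fewest, 6.

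Distal here means distal to GENCODE vM21 starts. A transcript start of RefSeq, many of them predicted, lay within 1 kb of 50 members (16.9%), against 5.11% of the others, and 36 of these 50 were CpG-rich. The start was a curated one in 13 members. None of the 27 CpG-rich members with CTCF had such a start. Transfer RNA genes, which RNA polymerase III transcribes, lay within 1 kb of 8 members (2.70%), against 0.441% of the others, and all 8 were CpG-rich. The nearest to one, 23 bp from the start of an isoleucine tRNA gene (chr17:83861821-83862020), had ranks of 95.8 and 96.1.

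The highest densities of all belonged to members that were neither CpG-rich nor CTCF-bearing, and some of these hold sequence found at several places, which limits how their densities can be read. A peak in an untranslated exon of Cers5, a ceramide synthase gene, had a density of 41.3 in replicate 1 and 38.3 in replicate 2 (chr15:99735821-99736040). Untranslated exons of Lars2, for the mitochondrial leucyl-tRNA synthetase (chr9:123461921-123462080, 27.8 and 22.6), and of Ubqln1, for ubiquilin 1 (chr13:58177641-58177800, 23.4 and 20.9), held the next. A peak between genes 21574 bp upstream of Igf2bp3 followed (chr6:49236441-49236620, 22.4 and 14.1). Then came one on chromosome 10, 75093 bp from the nearest start (chr10:126511601-126511820, 19.4 and 14.3). It held the AP-1 match of the highest rank that a footprint overlapped in both libraries. These 5 had the highest mean ranks, and they stood above every other member in replicate 2.

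Below them stood a CpG-rich peak 14548 bp upstream of Zfp395 (chr14:65343681-65344000, 20.2 and 11.1) and a CpG-rich one in an intron of Jarid2, a Polycomb cofactor gene (chr13:44869561-44869700, 17.4 and 10.1). The Irf2bp2 peak printed above, 72665 bp upstream of this transcriptional cofactor gene, had 14.4 and 10.6. Footprints overlapped its CArG box and an NFI site in both libraries. The list of 10 ended with a peak in a coding exon of Angptl6 (chr9:20878141-20878480, 14.9 and 9.56). None of the 10 held a CTCF match and 3 were CpG-rich, whereas of the 50 members of the highest mean rank 34 were CpG-rich and 4 held CTCF.

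Some of the highest members held sequence that occurs elsewhere in the genome. In 17 members (5.74%), against 3.60% of the other shared distal peaks, the median stretch of 31 bases was found more than once in the reference. The Lars2 and Igf2bp3 peaks were among them, with 3 copies each, and the highest count was 50, in a fully repeat-masked peak on chromosome 9 (chr9:3002144-3002240). The Igf2bp3 peak also matched a member in an intron of Gphn on chromosome 12 at 110 of 111 aligned bases with no gap. Densities of the Gphn member were 8.45 and 4.55. The aligned stretches are shown because they carry this likeness, with the differing base in capitals.
Gphn, chr12:78350950-78351060, plus strand: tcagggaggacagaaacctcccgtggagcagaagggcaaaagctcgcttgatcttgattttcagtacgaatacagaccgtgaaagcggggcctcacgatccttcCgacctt
Igf2bp3, chr6:49236507-49236617, minus strand: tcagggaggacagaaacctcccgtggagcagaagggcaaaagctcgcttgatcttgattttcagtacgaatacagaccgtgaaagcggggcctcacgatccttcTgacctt
The Gphn stretch was also 99.04% identical over 104 bp to a member near Hic2, and the Igf2bp3 peak 98.3% identical over 59 bp to the Lars2 peak. No source used here says how cuts from such copies were assigned, and the part of copies in these densities was not tested. Copies were counted in the assembly, so copies that it leaves out are not in these counts. The Cers5, Ubqln1 and Jarid2 peaks had a count of 1. Whether these peaks or the shared stretches belong to sequence with many copies in the genome, such as ribosomal DNA, was not tested, and the annotations used here give the stretches no name. The densities of these peaks therefore need not be the accessibility of the named places alone.

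No member lay within 50 kb of the most upstream start of the 16 listed myogenic regulators, which had 76 shared distal peaks. The highest of these, near Myog, ranked at 93.4 in replicate 1 and 94.4 in replicate 2. None lay near the 13 genes of excitation-contraction coupling, where the highest of 68 shared distal peaks, near Stac3, ranked at 93.7 and 96.2, or near the 10 limb position genes. Of all 44551 shared distal peaks 0.664% were members, and 582 of 20780 protein-coding genes (2.80%) had a member within 50 kb. A count of 0 in lists of this length is near these rates and is no result about the members. Of 23 fast or shared sarcomere genes 2 had a member (8.70%), and of 10 slow or cardiac-shared ones 1 (10%). A CpG-rich member with CTCF lay within 50 kb of Myl3, for the slow and ventricular essential light chain (chr9:110781481-110781680, densities 9.54 and 6.04). The member near Tpm1, for alpha-tropomyosin (chr9:67012541-67012700, 7.30 and 4.01), was neither CpG-rich nor CTCF-bearing. It lay 187 bp from a predicted noncoding start of RefSeq. The last, within 50 kb of Mylpf, for the fast regulatory light chain, lay in a coding exon of Zfp771 (chr7:127254061-127254340, 7.64 and 5.20).

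Clock and immediate early genes had the largest shares of the 13 lists. Of 18 clock genes 4 had a member within 50 kb (22.2%), and 8 of their 88 shared distal peaks were members (9.09%). Of 20 immediate early genes 4 had one (20%), and 6 of 133 shared distal peaks were members (4.51%). These shares of peaks stand against the 0.664% given above, which is over all shared distal peaks, near a gene or not. The sets were not matched in composition or rank. CpG-rich windows made up 15.9% of the clock peaks and 21.8% of the immediate early ones, against 7.14% of all shared distal peaks. Median ranks in replicate 1 were 72.2 and 72.5, against 51.7. The shares of genes stand against 2.80%, but these lists also had more peaks to draw on. Their median was 4 shared distal peaks per clock gene and 7 per immediate early gene, against 2 over all protein-coding genes. Of the other lists, 6 also had shares above 2.80%, each from 1 or 2 genes, and 5 had none. The lists were drawn up with earlier results of these data known, and the counts were not tested.

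The Per1 member, in an intron of this negative regulator of the clock, had densities of 14.4 in replicate 1 and 9.12 in replicate 2. Nr1d1, for the clock repressor REV-ERB alpha, had 4 members within 50 kb, with densities of 11.6 and 7.32, 7.33 and 6.02, 7.97 and 4.82, and 7.76 and 3.96. They spanned 13040 bp, the largest group of members with gaps of at most 20 kb. They are shared with the neighbouring Msl1, Casc3 and Thra, the last of which encodes a thyroid hormone receptor. For those of 7.33 and 6.02 and of 7.76 and 3.96, the nearest coding start was that of Msl1. Hlf, a PAR bZIP factor gene, had 1 member (11.8 and 6.64). Bhlhe41, a repressor gene, had 2 (7.45 and 4.26, 6.80 and 4.46), and all 3 held CACGTG. Among the Nr1d1 members only that of 7.97 and 4.82 held CACGTG, and the Per1 member did not hold it.

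Fos had 2 members, one 18619 bp upstream (11.1 and 6.12) and the printed one downstream (10.3 and 6.00), whose CArG box is the type of site through which serum response factor acts. Fosb also had 2 (8.82 and 5.66, 8.56 and 4.99), and Egr1 (10.2 and 5.53) and Ier2 (8.86 and 5.65) had 1 each. All 4 genes encode transcription factors or regulators induced within minutes of a stimulus. The Fosb member of 8.82 and 5.66 lay 14050 bp from the Fosb start, and its nearest coding start was that of Rtn2, at 4932 bp. The upstream Fos member lay in VISTA element mm260, an enhancer listed as active in the embryonic heart. In all, 7 members (2.36%) lay in VISTA enhancers, against 0.743% of the other shared distal peaks. One was the Atoh8 member (14.5 and 7.67), in mm123, which is listed as active in the limb among other tissues; Atoh8 encodes a bHLH factor. Of lists for other cell types, fibroblast genes had 1 of 19 with members (Col1a1, 5.26%), macrophage genes 1 of 10 (Spi1, 10%) and neuron genes 1 of 11 (Dlg4, 9.09%), and endothelial and hepatocyte genes had none. Housekeeping genes had 1 of 16 (6.25%). Some of these members lay nearer to other genes. The Spi1 member lay 32851 bp from the Spi1 start, and its nearest coding start was that of Mybpc3, at 2903 bp. One of the Col1a1 members lay 42907 bp from the Col1a1 start, with that of Sgca the nearest, at 2804 bp.

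**Figure D5:**
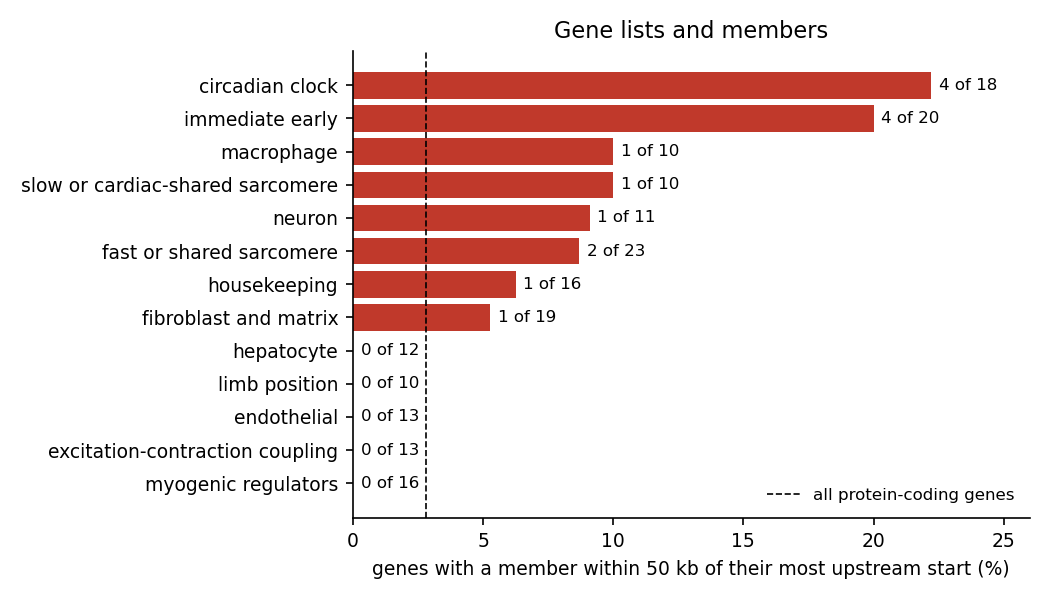
Share of the genes of each list with at least 1 member within 50 kb of their most upstream start (x axis, percent), with counts beside the bars; the dashed line is the share over all protein-coding genes, 2.80%. Clock genes (4 of 18) and immediate early genes (4 of 20) have the longest bars, and myogenic regulators (0 of 16) have none.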

How the data were processed

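DNase-seq was measured in 2 libraries of 1 group, so no comparison between groups and no test was possible. Alignment was to mm10 per the file headers and listings; no source used here names an aligner or a peak caller. The deposited peak lists, called on 1 library each, give the authors' cut density (signal) per peak, whose scale to depth is not stated. The deposited lists of cut rate give a false discovery rate (q-value) below 0.05 per base, and the deposited footprint lists hold intervals with the constant 0.01, of which only the positions were used.

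From these, the longer peak lists were ranked within each library and paired by an overlap of at least 1 bp, the highest-ranked partner being kept. Starts and places came from GENCODE vM21, and RefSeq starts, tRNA genes and VISTA elements from the GRCm38.p6 annotation. GC content, CpG ratio and 36 sequence sets were read in 200 bp windows. Copies were counted by 31-mers taken every 10 bp over the reference. Members were aligned to each other with BLAST 2.17.0 at an E-value limit of 1e-10.

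Peaks are named by rule: the 10 of the highest mean rank, the best member with a footprinted match for each of 8 sequence sets (MEF2 had none), members within 50 kb of 4 muscle gene lists, and the pairs next to the threshold. One of the 10 is not reported here. Other genes and printed peaks were chosen after their values were seen. The members, gene lists and sequence sets were chosen with earlier results of these data known. Analyses used Python 3.11.15, numpy 2.4.6, scipy 1.17.1, pandas 2.3.3, pysam 0.24.0 and numba 0.67.0, with figures from matplotlib 3.10.9. The search and overlap functions were tested on simulated data. Alternatives were other rank thresholds, distances, windows, peak lists and ranks, a rank limit in 1 library only, and 2 exclusions of members.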

Additional observations from a re-analysis of the deposited data

How the results depend on the processing

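No paired analysis was possible because there was only 1 group. Of 91 values of 8 results under an alternative, 65 stayed within the interval of the value reported and 26 did not, and the cause was not tested. The interval was the 95% Wilson interval for shares and 1.5 times either way for the number of members. For the median GC content it was 62% to 64%, from the ordered values. The intervals for shares and GC treat peaks as independent, and the alternatives share peaks with the members. Such intervals are a yardstick of size and no test. With a rank threshold of 90 there were 1313 members, with CTCF in 33.7%, a median GC content of 59% and CpG-rich windows in 32.1%. With one of 99 there were 37, with CTCF and AP-1 in 2.70% each, 66.5% GC and 70.3% CpG-rich. With ranks taken over distal peaks only there were 2745, with 34.3% CTCF, 57.5% GC and 24.4% CpG-rich. The shorter peak lists gave 117, with 15.4% CTCF and 60.7% CpG-rich. Beyond 5 kb from every start there were 160, with 29.4% in introns. Windows of 100 bp gave 2.03% AP-1, 11.8% CAGCTG and 56.4% CpG-rich, against 3.18%, 19.5% and 10.4% of the other shared distal peaks. Windows of 300 bp gave 30.4% CAGCTG and 60.7% GC, against 35.3% and 51.7%.

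With the rank limit applied in 1 library at a time, the number of members ranged from 309 to 527, where only replicate 2 set the larger count. The peaks were still those of replicate 1 shared with replicate 2, so neither library was used by itself. CTCF ranged from 24.6% to 28.7%, AP-1 from 5.50% to 6.64%, CAGCTG from 23.6% to 23.7%, introns from 34.3% to 35.9%, GC from 60% to 62.5%, and CpG-rich members from 42.3% to 49.8%. Footprints in both libraries stayed at 100%. Leaving out members with a RefSeq start within 1 kb, or with repeated 31-mers, were alternatives chosen after seeing the data, and they moved none of the 8 results out of its interval. Depth in reads is unknown, so no counting error can be given for a density. Exact letters miss weaker sites.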
